A study of Mus musculus with 2 samples.

Results

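The expression of 10 genes of cellular iron handling and heme breakdown was compared between 2 mouse melanoma lines: the ferritin subunit genes Fth1 and Ftl1, the uptake genes Tfrc and Slc11a2, the export gene Slc40a1, the iron sensor genes Aco1 and Ireb2, the ferritin turnover gene Ncoa4, the heme oxygenase gene Hmox1, and the biliverdin reductase gene Blvrb. They were taken by symbol, and 10 of 10 were found among 23284 symbols in the deposited tables. They were chosen by their FPKM in these same 2 libraries together with their known roles, so everything below is a description and no count is support for a pattern. B16, called the parental line below, is a melanoma line of C57BL/6 origin grown here in DMEM, and B16/BL6 is its invasive subline, grown in RPMI. Both media held 10% serum and 1% penicillin/streptomycin. The study set the lines side by side to look for genes tied to metastasis. There was 1 library of polyadenylated RNA per line, so no value has a replicate error and no difference was tested. Line and medium cannot be told apart. DMEM is by its standard recipe supplemented with an iron salt and RPMI is not, and the iron content of the cultures is not stated.

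Iron enters most cells bound to transferrin, through the transferrin receptor encoded by Tfrc, and is moved out of the endosome by the divalent metal transporter encoded by Slc11a2. Ferritin, a hollow shell of heavy (Fth1) and light (Ftl1) chains, stores the surplus, and ferroportin, encoded by Slc40a1, is the known iron exporter. When iron is scarce, the iron regulatory proteins IRP1 (Aco1) and IRP2 (Ireb2) bind hairpins called iron-responsive elements: a hairpin in the 5' UTR blocks translation, as in ferritin and ferroportin transcripts, and hairpins in the 3' UTR protect the transcript from decay, as in that of the transferrin receptor. Heme oxygenase 1 (Hmox1) opens the heme ring and frees its iron, leaving biliverdin, which the reductase encoded by Blvra turns into bilirubin. Blvrb encodes a separate reductase that acts on flavins and on other biliverdin isomers. The ferritin genes, Slc40a1, Hmox1 and Blvrb are also known as transcriptional targets of the oxidative stress factor Nrf2.

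The hairpins are shown because they divide the members into kinds of control. A search of GENCODE M21 transcripts (GRCm38, the assembly of mm10) asked for a 6-base loop of CAGTGN, 5 paired bases below it, an unpaired C, and at least 4 pairs in the next 5 bases. G-T pairs were allowed. It found 7 sites in the UTRs of 4 members, each printed 5' to 3' in DNA letters with the loop in capitals.
Fth1, 5' UTR, chr19:9982733-9982759, plus strand: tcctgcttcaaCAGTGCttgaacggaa
Ftl1, 5' UTR, chr7:45459780-45459806, minus strand: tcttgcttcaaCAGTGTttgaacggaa
Slc40a1, 5' UTR, chr1:45925466-45925492, minus strand: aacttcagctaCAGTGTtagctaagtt
Tfrc, 3' UTR, chr16:32631220-32631246, plus strand: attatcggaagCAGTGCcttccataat
Tfrc, 3' UTR, chr16:32631599-32631625, plus strand: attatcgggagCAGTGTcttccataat
Tfrc, 3' UTR, chr16:32631664-32631690, plus strand: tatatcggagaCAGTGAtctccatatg
Tfrc, 3' UTR, chr16:32631711-32631737, plus strand: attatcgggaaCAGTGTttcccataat
Such a site was found in the 5' UTR of 6 of 21864 protein-coding genes (0.0274%) and in the 3' UTR of 11 (0.0503%). Genes were matched to the FPKM values by GENCODE symbol, so a gene deposited under an older symbol was not counted. Of the 9466 matched genes that reached 1 FPKM in either library, only 3 had a 5' UTR site, namely Fth1, Ftl1 and Slc40a1. Those 3 had the largest B16/BL6 to B16 ratios of the 10 members, which were chosen with these values known. With 5 FPKM added to each value, Slc40a1 had a log2 difference of 0.70, below Blvrb (1.21) and Hmox1 (1.03). Whether the hairpin is linked to the transcript level was not tested. Slc11a2 is known to carry a hairpin with an altered stem in some of its isoforms, which this pattern does not describe, and 1 value per symbol does not separate isoforms.

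The ferritin transcripts were the most abundant members and stood higher in B16/BL6. Ftl1 (chromosome 7, 45457944 to 45459886, mm10 coordinates here and below) was at 2719 FPKM in the parental line against 7820 FPKM in the subline, a ratio of 2.88. Fth1 (chromosome 19, 9980600 to 9985111), whose product oxidises iron for storage, was at 2244 and 6235 FPKM, a ratio of 2.78. FPKM counts fragments relative to transcript length and library size, so levels of different genes can be set side by side. Ranked among the 10709 genes that reached 1 FPKM in either library, Ftl1 stood 12th in B16 and 2nd in B16/BL6, and Fth1 stood 15th and 3rd. Together they made up 0.992% of all FPKM in the parental line and 2.49% in the subline. The heavy to light ratio stayed close, at 0.825 in B16 and 0.797 in B16/BL6. Ferritin genes have near-identical processed copies elsewhere in the genome. GENCODE M21 has 16 ferritin-family symbols beginning with Fth or Ftl, a count that includes Fth1 and Ftl1 and is not one of processed copies alone. Of these 16 symbols, only Fth1 and Ftl1 are in the tables. The further ferritin symbols Fthl17 and Ftmt, the mitochondrial ferritin gene, were listed at 0 in both libraries. How reads matching several copies were assigned is not stated. Ftl1 also overlaps an antisense transcript and hosts a small RNA, and whether strand was used in the counting is not stated.

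**Figure D1:**
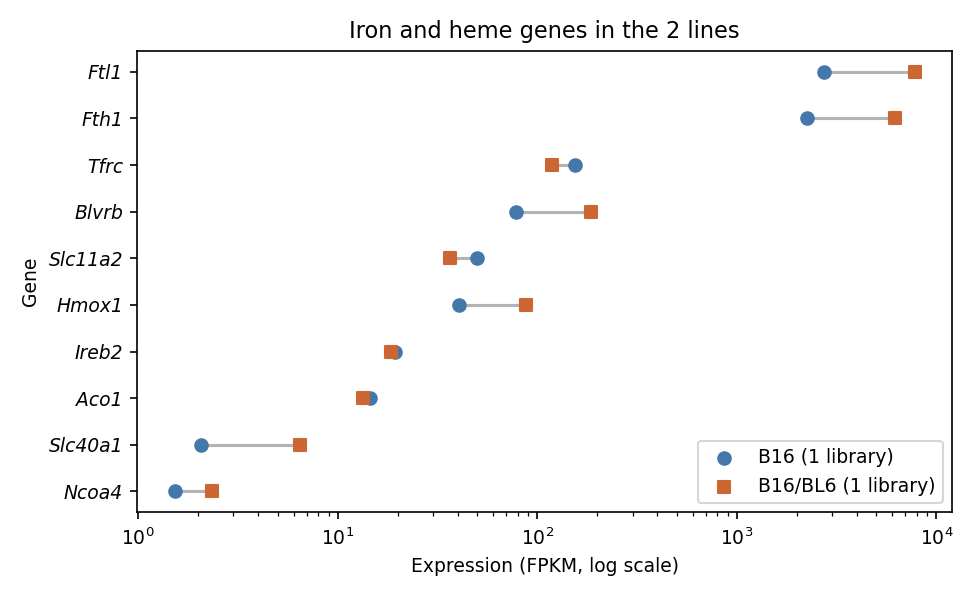
Expression of the 10 members in FPKM (log axis), with a circle for the B16 library and a square for the B16/BL6 library. The ferritin genes lie far to the right of all other members in both lines, and Ftl1, Fth1, Blvrb, Hmox1 and Slc40a1 have the widest gaps toward B16/BL6.

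The uptake genes were modestly lower in B16/BL6, within 2-fold. Tfrc (chromosome 16, 32608896 to 32632794) was at 154 FPKM in the parental line against 119 FPKM in the subline, a ratio of 0.774. Slc11a2 (chromosome 15, 100387898 to 100424209) was at 49.6 and 36.4 FPKM, a ratio of 0.733. Both differed in the direction opposite to the ferritin genes and kept it under each pseudocount, scaling and centring tried. Of 10709 genes, 83.2% had a larger log2 difference than Tfrc and 86.4% a larger one than Slc11a2, so both lay within the ordinary spread of the 2 libraries.

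The exporter gene Slc40a1 (chromosome 1, 45908070 to 45926532) was scarce in both lines, at 2.06 FPKM in the parental line against 6.49 FPKM in the subline. Its ratio of 3.16 was the widest among the members. The value rests on few fragments, about 69 in B16 and 243 in B16/BL6 by an approximate conversion from transcript length and estimated depth. On the log2(FPKM + 1) scale, where low genes show too small a change, its difference was 1.29, and with a pseudocount of 5 it was 0.70, under 2-fold.

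The genes of the iron sensors were nearly equal in the 2 lines. Ireb2 (chromosome 9, 54862658 to 54912534) was at 19.3 FPKM in the parental line against 18.6 FPKM in the subline. Aco1 (chromosome 4, 40143265 to 40199009), whose product doubles as a cytosolic aconitase when it holds an iron-sulfur cluster, was at 14.5 and 13.4 FPKM. The ratio of Aco1 to Ireb2 transcripts was 0.753 and 0.721. These are transcript levels, whereas IRP1 is known to be switched by its cluster and IRP2 by protein degradation, and neither was measured here. Ncoa4 (chromosome 14, 32159879 to 32179855), the receptor that carries ferritin to the lysosome, was the lowest member at 1.52 and 2.34 FPKM, a log2 difference of 0.40. It rested on about 62 and 106 fragments.

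Hmox1 and Blvrb were both higher in B16/BL6. Hmox1 (chromosome 8, 75093618 to 75100593) was at 40.6 FPKM in the parental line against 87.9 FPKM in the subline, a ratio of 2.17. Blvrb (chromosome 7, 27447978 to 27465981) was at 77.8 and 186 FPKM, a ratio of 2.39. Their counterparts lay on the other side, within 2-fold: Hmox2, the second heme oxygenase gene, was at 49.9 and 39.0 FPKM, and Blvra, the main adult biliverdin reductase gene, at 52.3 and 39.0 FPKM. The ratio of Hmox1 to Hmox2 was therefore 0.813 in B16 and 2.26 in B16/BL6, and that of Blvrb to Blvra was 1.49 and 4.77. The difference of Hmox1 was 1.10 on the log2(FPKM + 1) scale and 0.94, under 2-fold, after each library was rescaled to a common sum (the TPM scale).

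Counted together, 5 of the 10 members stood at least 2-fold higher in the subline, 0 were at least 2-fold lower and 5 lay within 2-fold. Among all 10709 genes, 50.6% were above 0, 3.31% were at least 2-fold higher and 3.16% at least 2-fold lower. Because the members were chosen with this contrast known, their count is not read against that share. The differences of 6 members were above 0 and those of 4 below it. The median log2 difference of the 10 was 0.75 beside 0.01 for all genes, with a range from -0.44 (Slc11a2) to 1.52 (Ftl1). Among 56 genes reaching 1000 FPKM in at least 1 library, a group that holds both ferritins, 7 were at least 2-fold higher (12.5%). The TPM scale moved the median of all genes to -0.16 and the split of calls from 354 higher and 338 lower to 369 and 583. Relative to that median, Ftl1 stood at 1.51, Fth1 at 1.46, Slc40a1 at 1.45, Blvrb at 1.24, Hmox1 at 1.09, Tfrc at -0.38 and Slc11a2 at -0.45.

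**Figure D2:**
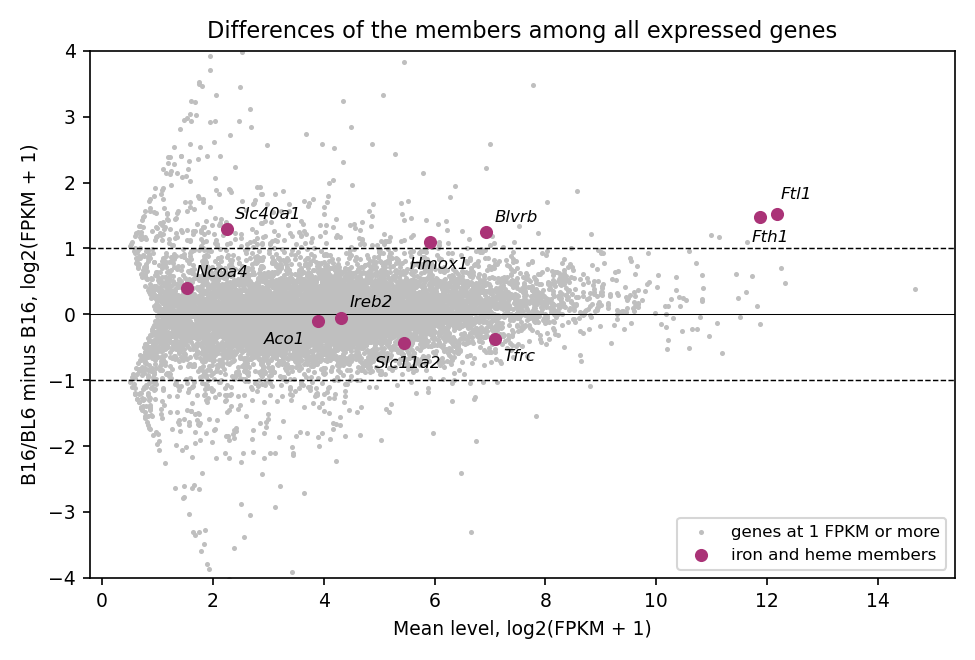
Difference between the lines, log2(FPKM + 1) in B16/BL6 minus B16, against the mean level, for 10709 genes (grey) and the 10 members (named points), with dashed lines at 2-fold. Ftl1 and Fth1 stand at 1.52 and 1.47 among the most abundant genes, while Tfrc, Slc11a2, Aco1 and Ireb2 lie inside the grey band; 38 genes fall outside the plotted range of 4.

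In B16 the order of levels was Ftl1, Fth1, Tfrc, Blvrb, Slc11a2, Hmox1, Ireb2, Aco1, Slc40a1 and Ncoa4. In B16/BL6, Blvrb stood above Tfrc and Hmox1 above Slc11a2, and the other places were the same. Without replicates, whether neighbours in this order differ beyond error cannot be stated. The closest steps were Ftl1 over Fth1, at 1.21 times in B16 and 1.25 times in B16/BL6, and Slc11a2 over Hmox1 in B16, at 1.22 times.

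Ratios inside a library do not depend on how it was scaled. The storage to uptake ratio, Fth1 to Tfrc, was 14.6 in B16 and 52.4 in B16/BL6, 3.59 times higher. The uptake to export ratio, Tfrc to Slc40a1, was 74.8 and 18.3, 4.08 times lower in B16/BL6. The pairs of like function, heavy with light ferritin and IRP1 with IRP2, kept their ratios within 5%, at 0.966 and 0.959 times the B16 value.

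**Figure D3:**
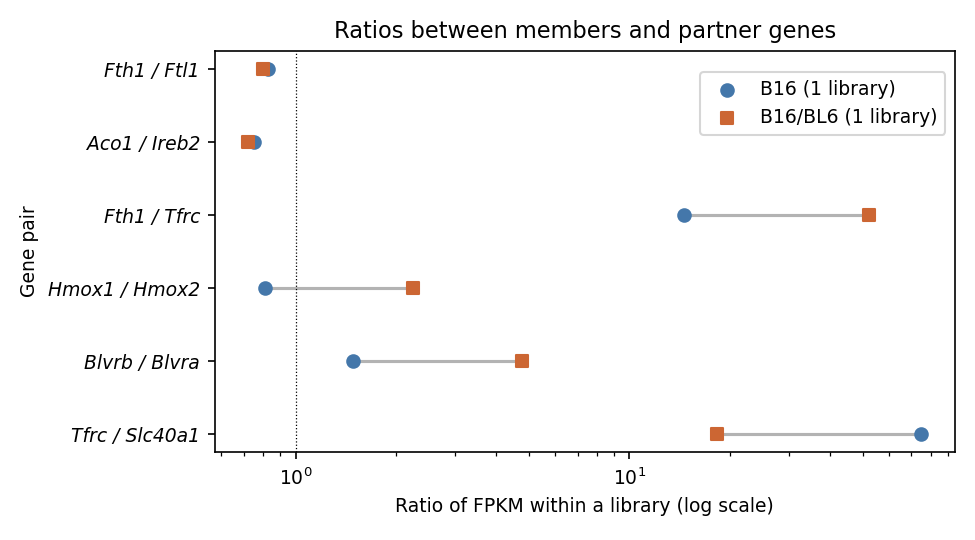
Ratio of FPKM between gene pairs within each library (log axis), with a circle for B16 and a square for B16/BL6 and a dotted line at equal levels. Fth1/Ftl1 and Aco1/Ireb2 overlap between the lines, Fth1/Tfrc goes from 14.6 to 52.4, and Hmox1/Hmox2 crosses from below 1 to above it.

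The wider iron and heme pathway was mostly within 2-fold. Of 129 other genes of 10 lists found in the tables, 103 reached 1 FPKM, and 3 of these stood at least 2-fold higher in the subline, 2 lower and 98 within 2-fold. Their median was -0.01, against 0.01 for all genes, and 4.85% were called either way against 6.46% of all genes. The 5 called genes were Bdh2, Cp and Lrp1 (higher) and Abcg2 and Maff (lower). With a pseudocount of 5, Cp (0.97), Lrp1 (0.96) and Maff (-0.81) were under 2-fold on the log2 scale, which left Bdh2 and Abcg2.

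Among iron uptake and reduction genes, 11 of 21 reached 1 FPKM, 1 was higher and 0 lower. The higher one was Bdh2, a dehydrogenase gene linked to a mammalian siderophore, at 8.09 FPKM in the parental line against 27.1 FPKM in the subline. Steap3, which encodes the endosomal ferrireductase that serves the transferrin receptor, was at 57.3 and 35.9 FPKM, a log2 difference of -0.66 beside those of Tfrc (-0.37) and Slc11a2 (-0.44). Steap1, a gene of the same family, was at 5.48 and 10.3 FPKM. Slc39a14, an importer of iron not bound to transferrin, was at 18.3 and 18.7 FPKM. Mfi2, which encodes melanotransferrin, an iron-binding surface protein first described as a melanoma antigen, was nearly absent at 0.0231 and 0.0209 FPKM.

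Of the 10 storage and turnover genes, 9 reached 1 FPKM, and the 2 that were higher were the ferritins. The iron chaperone genes Pcbp1 and Pcbp2, whose products load ferritin, were at 523 and 263 FPKM in the parental line and 591 and 385 FPKM in the subline. Herc2, a ubiquitin ligase gene that acts on Ncoa4 protein, was at 7.48 and 6.12 FPKM. Export and systemic control had 5 of 13 genes at 1 FPKM, with 2 higher and 0 lower. Beside Slc40a1 this was Cp, the gene of the ferroxidase ceruloplasmin that works with ferroportin, at 5.39 and 15.3 FPKM. Hfe, the hemochromatosis gene, was at 20.8 and 14.1 FPKM and the co-receptor gene Neo1 at 30.7 and 36.1 FPKM. Of this list, 7 genes were listed at 0 in both libraries.

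None of the 6 genes of the iron regulatory proteins and their turnover was 2-fold different. Fbxl5, the iron-sensing ubiquitin ligase subunit gene that controls IRP2, was at 13.9 FPKM in the parental line against 15.4 FPKM in the subline. Its partner gene Skp1a was at 158 and 267 FPKM, Cul1 at 73.7 and 65.2 FPKM and Fbxw7 at 5.26 and 4.48 FPKM. Among other transcripts reported to hold an iron-responsive element, 6 of 7 reached 1 FPKM and 0 were called. Their widest differences were those of Cdc42bpa (8.43 and 12.4 FPKM), Ndufs1 (94.8 and 67.9 FPKM) and Cdc14a (3.81 and 3.36 FPKM).

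Heme breakdown and transport held 12 genes at 1 FPKM, with 3 higher (Hmox1, Blvrb and Lrp1), 1 lower (Abcg2) and 9 above 0. Lrp1, the endocytic receptor gene for heme bound to hemopexin and many other ligands, was at 1.18 FPKM in the parental line against 7.01 FPKM in the subline. Abcg2, an efflux transporter gene whose substrates include porphyrins, was at 18.0 and 0.827 FPKM. Pgrmc1, a heme-binding protein gene, was at 53.3 and 86.0 FPKM. Without the 2 members the median of the list was 0.53, with 0.32 to 0.59 over the alternatives, against 0.01 for all genes. Heme synthesis had 14 of 15 genes at 1 FPKM and 0 called. Alas1, the rate-limiting enzyme gene outside erythroid cells, was at 31.1 and 24.0 FPKM, Alad at 24.2 and 37.2 FPKM, Cpox at 20.5 and 15.4 FPKM and the porphyrin carrier gene Tmem14c at 189 and 113 FPKM.

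The 28 measured genes of iron-sulfur cluster assembly were all within 2-fold, from -0.63 for the chaperone gene Hspa9 (253 and 163 FPKM) to 0.83 for Bola3 (126 and 226 FPKM), with Nfu1 at 52.4 and 72.2 FPKM. Of 13 measured regulators of Hmox1 and ferritin transcription, 0 were higher and 1 was lower, the small Maf gene Maff (6.998 and 1.86 FPKM). Nfe2l2, which encodes Nrf2, was at 72.3 FPKM in the parental line against 53.4 FPKM in the subline, its inhibitor gene Keap1 at 23.7 and 23.0 FPKM, and Bach1, the gene of the heme-sensing repressor of Hmox1, at 10.5 and 10.4 FPKM. The related factor gene Nfe2l1 was at 61.9 and 34.7 FPKM and Mafk at 16.7 and 10.0 FPKM. Nrf2 and Bach1 are known to be controlled mainly as proteins, which were not measured. Of 10 measured genes of the lipid peroxide list, 0 were called. The list holds genes that limit iron-driven membrane damage and also Acsl4 and Lpcat3, lipid-remodelling genes known to favour peroxidation. The peroxidase gene Gpx4 was at 21.5 and 32.7 FPKM, the glutathione synthesis gene Gclm at 27.1 and 49.9 FPKM and Lpcat3 at 46.9 and 75.4 FPKM, whereas Acsl4 was at 8.42 and 6.07 FPKM.

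**Figure D4:**
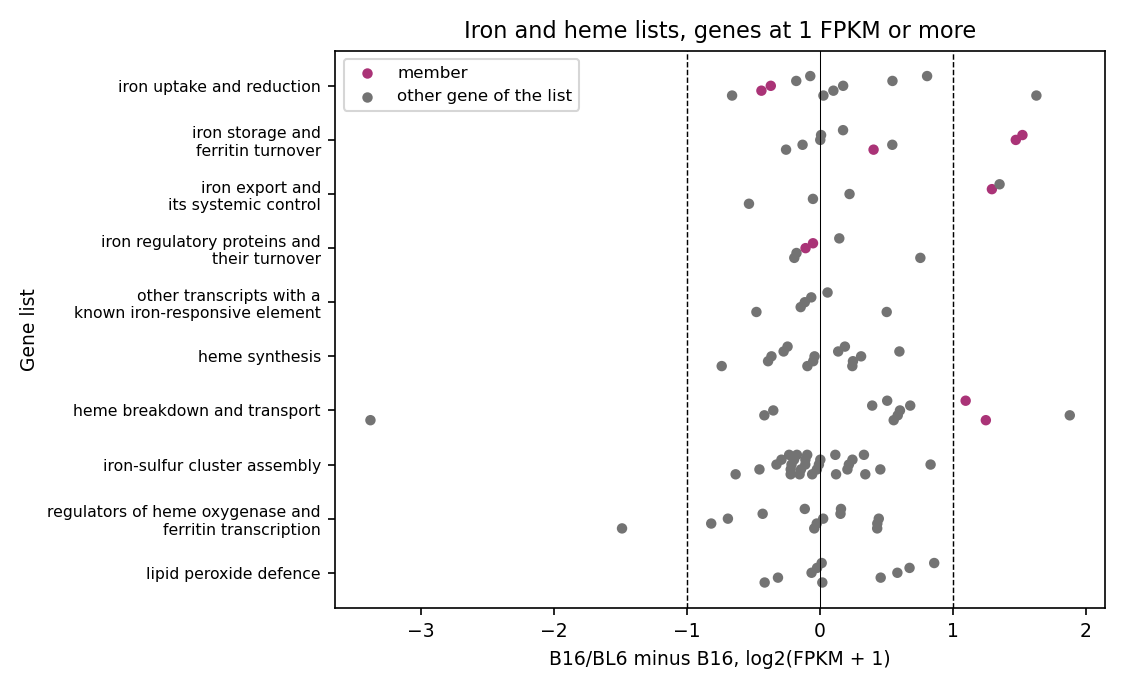
Difference between the lines, log2(FPKM + 1) in B16/BL6 minus B16, for each gene at 1 FPKM or more in the 10 iron and heme lists; members are coloured, other genes grey, and dashed lines mark 2-fold. The coloured ferritin, Slc40a1, Hmox1 and Blvrb points lie beyond 1, and all 28 iron-sulfur genes lie between the dashed lines.

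Members were also set against the 10 expressed genes on either side of them on the chromosome. For Fth1, Ftl1, Slc40a1 and Blvrb the 20 neighbours had medians of 0.06, 0.09, -0.04 and 0.11, and each of these members lay above all 20. Only 1.38% (Ftl1) to 2.06% (Blvrb) of all genes had a larger difference than these members, which were chosen with their values known. Their place above 20 neighbours therefore adds little. Hmox1 also lay above all of its 20 neighbours, but 18 of these, between 72340990 and 79295002 on chromosome 8, were above 0, with a median of 0.44 and a highest value of 0.81. Hmox1 lay 0.66 above that local median, against 1.07 above the median of its whole chromosome. Copy number was not measured. For Tfrc, Slc11a2, Aco1, Ireb2 and Ncoa4 the member lay within the range of its neighbours.

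**Figure D5:**
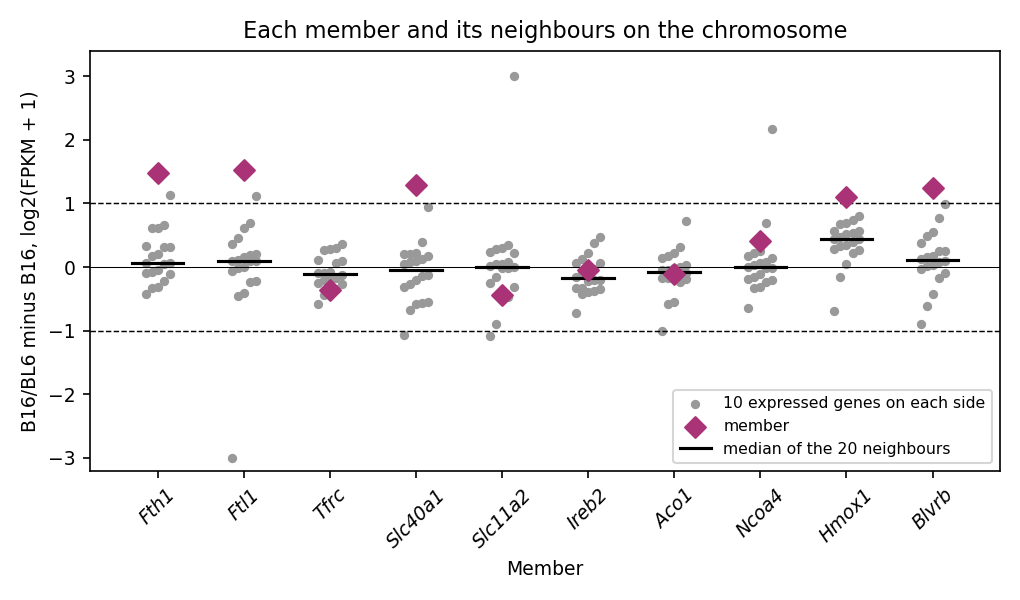
Difference between the lines, log2(FPKM + 1) in B16/BL6 minus B16, for each member (diamond) and the 10 expressed genes on each side of it (grey), with a bar at the median of the 20 neighbours. The grey points around Hmox1 centre on 0.44, whereas the other medians lie between -0.18 and 0.11; 2 neighbours beyond the range are drawn at its edge of 3.

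The Ftl1 promoter is shown because Ftl1 had the largest log2 difference of the members. It is given from RefSeq (GRCm38.p6, chr7:45459887-45460136, minus strand) as the 250 bases before the start site, 5' to 3'. Capitals mark matches to the CCAAT box (CCAAT on either strand, read here as its reverse complement, ATTGG).
Ftl1 promoter: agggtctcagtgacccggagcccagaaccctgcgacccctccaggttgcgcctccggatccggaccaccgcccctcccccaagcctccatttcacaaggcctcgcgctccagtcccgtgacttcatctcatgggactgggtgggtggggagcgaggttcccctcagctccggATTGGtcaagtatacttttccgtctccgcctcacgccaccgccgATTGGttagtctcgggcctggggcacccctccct
The matches began 78 and 34 bases before the start site. RefSeq promoters were matched for 7 members, and those of Hmox1, Slc40a1 and Slc11a2 were not searched. A CCAAT box, which is bound by the factor NF-Y, was also found once each in promoters of Fth1 and Tfrc, and 37.4% of all 32851 promoter windows of 300 bases held one. The core of the antioxidant response element bound by Nrf2 (TGACNNNGC, in 12.4% of windows) matched once, in a promoter of Ncoa4. TGAGTCA (5.20%) and CACGTG (7.15%) matched no window of these members, which says only that these letters are not in these windows.

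The genes closest to a member over the 2 libraries, by distance on the log2(FPKM + 1) scale, were Pmel, Ftl1 and Rpl32 for Fth1 (distances 0.43, 0.43 and 0.66), Rpl36, Cdc37 and Anapc13 for Tfrc (0.03, 0.05 and 0.06) and Fam108a, Nkain1 and St3gal5 for Hmox1 (0.05, 0.06 and 0.14). Likeness over 2 values carries little information.

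The depth was not recorded. Of 379 genes between 0 and 0.1 FPKM in both libraries, 155 had a B16/BL6 to B16 ratio of 0.906. If FPKM was scaled by fragment number, this puts B16/BL6 at about 1.10 times the depth of B16. The estimates of 10000000 and 11100000 fragments used only genes implying 8000000 to 14000000, so that range partly set them. The fragment counts given for members rest on these estimates. The cultures carried the markers of their label: all 8 melanocyte genes exceeded 1 FPKM, with sums of 12358 and 18859.7 FPKM. Of these, 2 were at least 2-fold above their parental level, Tyr (10.6 and 164 FPKM) and Pmel (2166 and 4651 FPKM, under 2-fold at 0.93 on the TPM scale and at 0.69 with each chromosome centred, both as log2 differences), and 6 of the 8 were above 0, with a median of 0.45. Their part in the higher ferritin levels was not tested. Markers of cells that recycle or use much iron were low. The 10 leukocyte and macrophage markers summed to 5.94 and 6.37 FPKM, with Cd163 and C1qa at 0 in both. Most of that came from Cd68 (2.83 and 1.23 FPKM) and Lyz2 (2.56 and 3.96 FPKM), levels near those of the scarce members Slc40a1 and Ncoa4. The 10 erythroid markers found summed to 0.477 and 1.20 FPKM. In B16/BL6 most of this was Epor, at 1.01 FPKM against 0.168 FPKM in B16. The globin genes that were found were at 0 in both. The 7 fibroblast markers summed to 0.532 and 0.762 FPKM. In bulk RNA, fewer cells with a transcript and less of it per cell cannot be told apart.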

How the data were processed

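RNA of 1 B16 and 1 B16/BL6 culture was sequenced after stranded poly(A) library preparation, per the labels' protocols. The authors deposited FPKM, 1 value per symbol, per the file headers. Cufflinks 2.2.1, TopHat2 2.0.13, SAMtools 0.1.19, Bowtie2 2.2.3 and mm10 appear in the submitters' processing notes, without roles. Annotation, FPKM scaling and the treatment of multi-mapping reads: not given in the sources used here.

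Differences are log2(FPKM + 1) in B16/BL6 minus B16, called at 2-fold among genes reaching 1 FPKM in either library (python 3.11.15, pandas 2.3.3). With 1 library per line no test was possible. Depth was estimated from single-transcript genes (80 and 75) whose low values imply 8000000 to 14000000 fragments, a range taken over from an earlier look at these data.

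Members and lists were chosen with earlier results of these data known. The text names the members, the 3 other genes per list with the widest differences, 10 genes whatever their values and genes closest in pattern. Chosen after their values were seen were Cd163, C1qa, Cd68, Lyz2, Epor, Fthl17, Ftmt, Acsl4, Tyr and Pmel. So were the other expressed genes with a 3' UTR hairpin in the closing observations. The CCAAT search and the 1000 FPKM group were added after the values were seen. Positions came from RefSeq GRCm38.p6.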

Additional observations from a re-analysis of the deposited data

How the results depend on the processing

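The alternatives were pseudocounts of 0.1 and 5, the TPM scale, upper-quartile scaling, centring of each chromosome, no minimum, a minimum of 5 FPKM and a 1.5-fold call. Fth1, Ftl1 and Blvrb stayed at least 2-fold higher under each pseudocount, scaling and centring, with log2 differences of 1.30 to 1.52, 1.35 to 1.52 and 1.08 to 1.26. With a pseudocount of 5, Slc40a1 was at 0.70 and the other pathway genes had 1 higher and 1 lower. On the TPM scale Hmox1 was at 0.94. Centring put Ireb2 at 0.010. At 1.5-fold, 12 other pathway genes were higher and 7 lower. The members counted as higher numbered 4 with a pseudocount of 5 or on the TPM scale and 5 otherwise, and 0 were lower throughout. All genes called lower numbered 511 with a pseudocount of 0.1 and 212 with a minimum of 5 FPKM. A pseudocount of 5 left 151 genes higher and 118 lower, and a 1.5-fold call gave 1005 and 917. The values of single genes outside the members (Bdh2, Cp, Lrp1, Abcg2, Maff, Tyr and Pmel) under these alternatives were added after seeing the data. No paired analysis was possible because each line had 1 library. Depth limits Slc40a1 and Ncoa4 most.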

Other observations

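Among expressed genes matched by GENCODE symbol, the hairpin search also marked 6 others in the 3' UTR besides Tfrc, none of them called. The ubiquitin ligase genes Fbxl14 and Trim23 were at 28.2 and 3.85 FPKM in the parental line and 31.2 and 3.44 FPKM in the subline. The nucleotidase gene Cant1 was at 33.2 and 28.9 FPKM and the zinc finger gene Zbtb44 at 3.37 and 3.26 FPKM. The clone-named 2010111I01Rik and 4931428F04Rik were at 1.32 and 1.60 FPKM in the parental line and 1.64 and 1.13 FPKM in the subline. The median log2 difference of the 7 genes with a 3' UTR site was -0.12. They were singled out once their values were known.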
